A study of Mus musculus with 18 samples.

Results

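The comparison is between splenic B cells from Ubqln1-/- mice cultured with lipopolysaccharide (LPS) for 4 hr and the same kind of cells left unstimulated. Its 6 libraries, 3 with LPS and 3 resting, are all of the libraries of those groups among the 18 of the series, and they were chosen by genotype and treatment alone. Counts were given for 28096 genes in every library, of which 14161 had enough reads to test. The series asked how loss of the ubiquitin-binding chaperone Ubiquilin-1 alters B cell activation, and it paired each Ubqln1-/- group with a wild-type (WT) group and added cells stimulated through the B cell receptor. All mice were C57BL/6 N and at least 8 weeks old. Ubqln1-/- mice carry a germline deletion of exon 2 of Ubqln1, made with floxed alleles and Cre, so every tissue lacks it. B cells were isolated from spleen by negative selection, and each library came from wells of one experiment that were pooled before RNA was purified. The 6 groups of 3 were resting, LPS (20 μg/mL, from E. coli K12) and anti-IgM F(ab)2 (10 μg/mL), each for 4 hr in both genotypes. Nothing in the labels ties a library to its own animal, so the p-values measure the spread between these samples.

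LPS is a component of the outer membrane of Gram-negative bacteria. It is bound by TLR4 with its partner MD-2 (Ly96), and in B cells the related pair RP105 (Cd180) and MD-1 (Ly86) modulates the signal. TLR4 signals through MyD88 at the plasma membrane, toward NF-kB and MAP kinases, and through TRIF from endosomes, toward IRF3 and type I interferon. Type I interferon in turn acts back on the cells through its receptor and JAK-STAT signalling. In mouse B cells LPS is a mitogen that does not need the antigen receptor: the cells leave quiescence, grow, divide and later secrete antibody.

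Ubqln1 itself was at 92.7, 91.4 and 106 counts-per-million units (CPM, with the library size scaled by edgeR) in the resting Ubqln1-/- libraries, in the order of replicates 1, 2 and 3 used for every gene here. With LPS it was at 98.0, 108 and 111 CPM. All 6 values lay below the resting WT libraries, at 237, 236 and 229 CPM, and below the WT libraries with LPS, at 295, 298 and 267 CPM. The remaining reads are counts over the whole gene, which includes exons outside the deletion. In resting cells the difference between genotypes was a log2 fold change of -1.27 ± 0.073 (SE, n = 3 per group; edgeR adjusted p = 6.68e-08). LPS gave Ubqln1 a log2 fold change of 0.13 ± 0.072 in Ubqln1-/- cells, which did not pass the test (edgeR adjusted p = 0.136), although it passed without resting replicate 3. Its paralog Ubqln4 was at 127, 140 and 146 CPM at rest and at 229, 263 and 240 CPM with LPS. The groups did not overlap, and Ubqln4 rose by 0.83 ± 0.11 on the log2 scale (edgeR adjusted p = 6.3e-06). Ubqln2 had a log2 fold change of -0.07 (edgeR adjusted p = 0.235). Per length, the mean RPKM with LPS was 72.4 for Ubqln4, 28.7 for Ubqln1 and 17.1 for Ubqln2.

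The resting Ubqln1-/- libraries held 20604152 to 21808529 counts and those with LPS 17224952 to 27515442, within a range of 15368941 to 41072854 over the series. Of the 11 B cell markers, 10 were in the files, and together they gave 18071 to 20004 CPM at rest and 16748 to 18936 CPM with LPS. Cd3e, which defines T cells, was at 0 in all 6 libraries, and 7 of 10 T cell markers were below 1 CPM. The summed T cell markers were 98.6 to 137 CPM at rest and 77.3 to 97.4 CPM with LPS, carried by Cd247 and Lck. Macrophage markers summed to 32.2 to 52.6 CPM at rest and 22.7 to 27.7 CPM with LPS, neutrophil markers to at most 1.14 CPM and NK cell markers to at most 3.18 CPM. The summed dendritic cell markers were 40.2 to 45.8 CPM at rest and 88.4 to 89.4 CPM with LPS, and the plasmacytoid marker Siglech was at most at 0.142 CPM. Zbtb46 accounted for most of that difference, at 4.92, 5.82 and 4.41 CPM at rest and 30.6, 37.5 and 36.4 CPM with LPS. Plasma cell markers summed to 187 to 215 CPM at rest and 98.8 to 132 CPM with LPS, and erythroid markers to 146 to 175 and 397 to 520 CPM, carried by the transferrin receptor Tfrc, which B cells also express. The part of other cell types in the results was not tested. In bulk RNA, fewer cells of a type and less RNA per cell cannot be told apart.

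LPS moved a large share of the measured transcriptome of Ubqln1-/- B cells. Among genes whose mean reached 10 CPM with LPS, the 15 largest rises included the interferon-induced genes Cxcl10, Ifit1 and Isg15, the lipase Mgll, cyclin D2, Myc, the survival gene Bcl2l1 and the NF-kB regulator Nfkbiz. Among those whose mean reached 10 CPM at rest, the 15 largest falls included S1pr1, the receptor that brings lymphocytes out of lymphoid organs, and Sdc1, which marks plasma cells. At an adjusted p under 0.05, 4327 genes rose (30.6% of those tested) and 4272 fell (30.2%). Of these, 1107 rose by over 2-fold (7.82%) and 1150 fell by over 2-fold (8.12%). With unscaled library sizes in place of TMM, which moved the median of all genes to -0.095, 3750 rose and 4887 fell, 963 and 1322 of them by over 2-fold. The thresholds of the study, an absolute log2 fold change over 2 with an adjusted p under 0.001, were passed by 173 higher genes (1.22%) and 74 lower genes (0.523%). The median log2 fold change of all genes tested was -0.02 with TMM. Tests were edgeR quasi-likelihood tests over all 18 libraries. Without LPS replicate 2, the deepest of the 6 libraries, 183 genes passed the thresholds of the study in place of 247, of which 146 were higher and 37 lower.

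**Figure D1:**
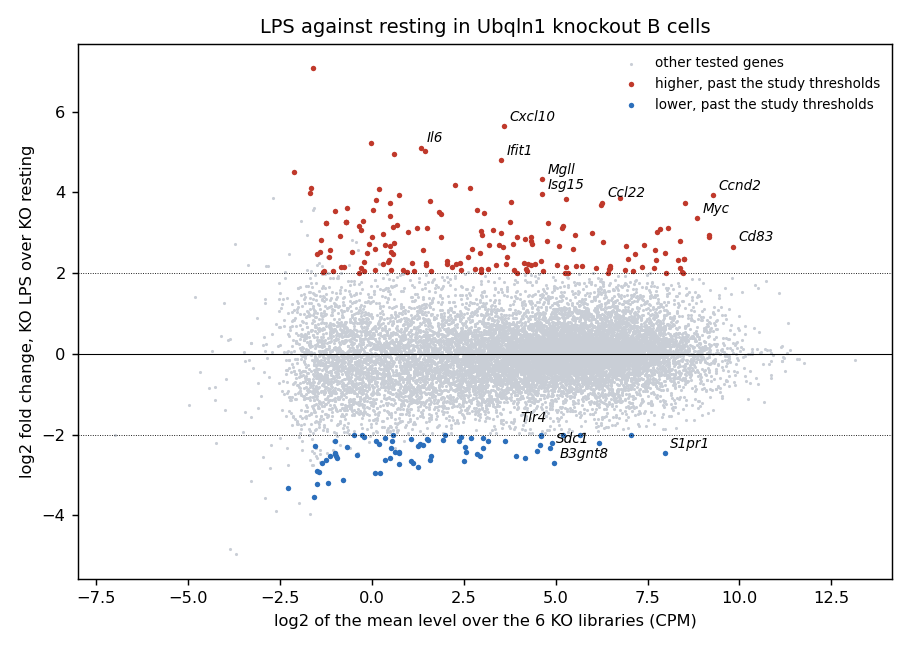
Log2 fold change of Ubqln1-/- (KO) B cells with LPS over resting (vertical axis) against mean level in log2 CPM (horizontal axis), with 1 point for each of the 14161 genes tested; coloured points passed the thresholds of the study and dotted lines mark a log2 fold change of 2 in either direction. The 173 higher and 74 lower genes lie beyond the dotted lines, and named genes such as Cxcl10 at 5.64 and S1pr1 at -2.46 are labelled.

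Of the 247 genes past the thresholds of the study, 23 had no symbol. Among those with a symbol, every LPS library lay beyond every resting library and the higher group averaged at least 10 CPM for 111 genes, 91 higher and 20 lower. From the 15 largest rises and 15 largest falls of these, 29 genes are described here. Cxcl10, a chemokine that attracts cells bearing CXCR3, was at 0.473, 0.313 and 0.616 CPM at rest and at 24, 24.3 and 22.2 CPM with LPS. It rose the most of the 15, by 5.64 ± 0.36 on the log2 scale (edgeR adjusted p = 3.93e-09). Its resting values were all under 1 CPM, so the size of this fold change is not firm. Ifit1, which binds RNA lacking the host's cap modification, was at 0.521, 0.716 and 1.14 CPM at rest and at 29.7, 22.1 and 14.6 CPM with LPS, a log2 fold change of 4.80 ± 0.40. Isg15, a ubiquitin-like protein that is conjugated to other proteins, was at 3.03, 2.95 and 3.08 CPM at rest and at 68.1, 42.6 and 29.7 CPM with LPS, a log2 fold change of 3.95 ± 0.28. For both genes the groups were far apart, and with LPS replicate 1 was the highest and replicate 3 the lowest. The resting level of Ifit1 was close to 1 CPM, so the size of its fold change is not firm.

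Genes of the cell cycle, survival and NF-kB were also among the largest rises. Ccnd2, the cyclin that partners with CDK4 and CDK6 in B cells leaving G0, was at 75, 87.6 and 66.6 CPM at rest and at 1181, 1309 and 1020 CPM with LPS. This is a log2 fold change of 3.94 ± 0.20 (edgeR adjusted p = 6.33e-10), or 15.3-fold. Bcl2l1, whose main product is the anti-apoptotic Bcl-xL, was at 14.3, 15.5 and 12.3 CPM at rest and at 215, 215 and 180 CPM with LPS, a log2 fold change of 3.85 ± 0.17. Nfkbiz, which encodes the nuclear IkB protein IkB-zeta, was at 50.7, 55.5 and 48.5 CPM at rest and at 662, 726 and 679 CPM with LPS. Its log2 fold change of 3.74 ± 0.11 had an edgeR adjusted p of 1.96e-12. Ccl22, a chemokine for T cells bearing CCR4, was at 18.9, 7.25 and 5.64 CPM at rest and at 180, 146 and 101 CPM with LPS (log2 fold change 3.75 ± 0.41). The resting values of Ccl22 were the most uneven of these genes. Its groups did not overlap, which the rule for choosing these genes required. Others among the 15 were Mgll, an enzyme that breaks down monoacylglycerols (log2 fold change 4.32 ± 0.31), the zinc-finger repressor Snai1 (4.11 ± 0.27), the Cdk5 activator Cdk5r1 (3.68 ± 0.15), Utf1 (3.57 ± 0.21), Tnfrsf19 of the TNF receptor family (3.48 ± 0.46), Myc (3.36 ± 0.20) and Mfsd2a, a transporter of lysophospholipids (3.28 ± 0.28).

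The 15 largest falls had log2 fold changes between -2.08 and -2.71. S1pr1 was at 403, 368 and 495 CPM at rest and at 72.7, 54.4 and 104 CPM with LPS, a fall of 5.49-fold (log2 fold change -2.46 ± 0.23, edgeR adjusted p = 1.63e-07). The groups were far apart. Spns2, which exports the ligand of S1pr1, was also among the 15 (-2.26). Sdc1, or CD138, was at 51.4, 48.1 and 45.5 CPM at rest and at 10.2, 8.60 and 9.99 CPM with LPS (-2.34 ± 0.21). The others with a known role were the glycosyltransferase B3gnt8 (-2.71), the cytosolic sensor of bacterial peptidoglycan Nod1 (-2.58), the orphan receptor Gpr146 (-2.54), the cytolinker Ppl (-2.54), the transcription factor Bhlhe41 (-2.41), the neonatal Fc receptor Fcgrt (-2.33), the adhesion molecule Ceacam1 (-2.20), the acid phosphatase Acp5 (-2.20), the phosphodiesterase Smpdl3a (-2.16) and the immunoreceptor Nfam1 (-2.09). Hepacam2 (-2.15) and D930048N14Rik (-2.08) complete them.

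**Figure D2:**
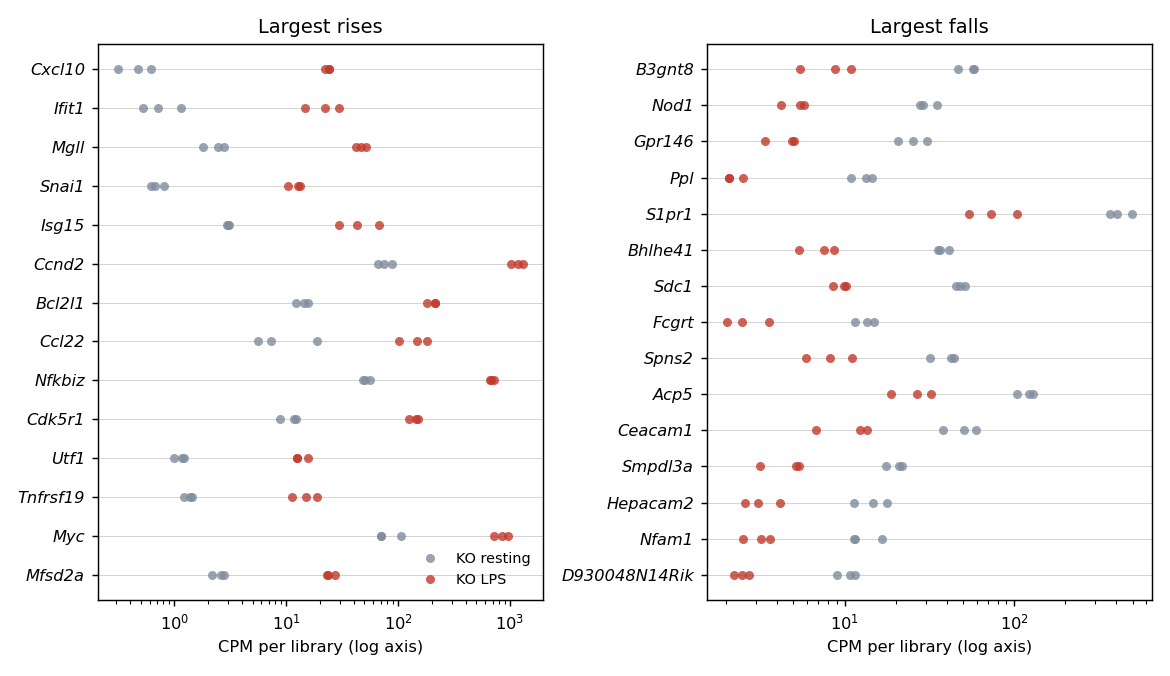
CPM on a log axis for 14 of the 15 largest rises and for the 15 largest falls, with 1 point per Ubqln1-/- library, resting in grey and LPS in red. The groups do not overlap for any of the 29 genes, which the rule for choosing them required, and the levels with LPS run up to the 1309 CPM of Ccnd2.

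Promoters of genes that rose were read from RefSeq on GRCm38.p6, as the 250 bases before and the 50 bases after each gene start. 5 patterns were searched on both strands. The sequences show matches to the first pair of them: GAAA followed by any 2 bases and GAAA again, the core of the interferon-stimulated response element (ISRE) that IRF factors bind, and GGGA followed by any 2 bases and TTCC, a form of the NF-kB site. Stretches upstream of the start are shown, on the strand of the gene, for some of the genes that hold a match there, with the matches in capitals (TTTC, any 2 bases and TTTC is the ISRE core read from the other strand). Isg15 holds 3 overlapping matches. They lie at chr19:34640765-34640833 (plus strand) for Ifit1, chr4:156200855-156200916 (minus) for Isg15, chr5:92349073-92349122 (minus) for the ISRE core of Cxcl10, chr5:92349019-92349068 (minus) for its NF-kB site, and chr12:55492648-55492696 (minus) for Nfkbia.
Ifit1: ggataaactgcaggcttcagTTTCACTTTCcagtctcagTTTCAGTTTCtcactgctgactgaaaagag
Isg15: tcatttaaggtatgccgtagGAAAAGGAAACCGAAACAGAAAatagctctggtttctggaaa
Cxcl10, ISRE core: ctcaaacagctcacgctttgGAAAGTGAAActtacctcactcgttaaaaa
Cxcl10, NF-kB site: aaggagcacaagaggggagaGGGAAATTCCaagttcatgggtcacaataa
Nfkbia: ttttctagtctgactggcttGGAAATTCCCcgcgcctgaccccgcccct

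The ISRE core was in 3.44% of all 32851 promoters of the table, counted singly. For groups of genes each gene with a promoter counted once, and held a pattern if any of its promoters did. So counted, the core was in 3.85% of 10067 tested genes. It was in 9 of the 121 genes higher past the thresholds of the study (7.44%, 95% exact binomial interval 3.46% to 13.7%), and in 0 of the 48 lower genes. The NF-kB pattern was in 1.47% of all promoters, in 1.7% of tested genes and in 2 of those 121 (1.65%). TGANTCA, an AP-1 site, was in 6.14% of tested genes, in 13.2% of higher genes and in 20.8% of lower genes. CACGTG, an E-box that Myc with Max can bind, was in 11.8% of tested genes and in 12.4% of higher genes. TTC, any 3 bases and GAA, the GAS element that STAT dimers bind, was in 8.35% of tested genes, 9.92% of higher genes and 14.6% of lower genes. The remaining patterns were the AP-1 site TGANTCA (6.14% of tested, 13.2% of higher and 20.8% of lower genes) and the E-box CACGTG (11.8%, 12.4% and 12.5%). Upstream of the start, Irf7 and Oasl1 held no ISRE core, and Tnfaip3, Icam1, Bcl2l1, Bcl3, Tnf, Ebi3 and Ccl22 held no NF-kB pattern. Nfkbiz, Ccnd2 and Tor3a were not searched. A match describes letters in this window and is not shown to be a bound site, and no match says only that these letters are not there.

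Most genes of the NF-kB pathway rose, while the genes for the LPS receptor and its adaptors had shares close to those of all genes tested. Of the 23 in the latter list, 7 rose (30.4%, against 30.6% of all genes) and 6 fell (26.1%, against 30.2%), with a median log2 fold change of -0.02, which was 0.02 without resting replicate 2 and -0.072 without resting replicate 3. The difference between these lists was not tested. Tlr4 was at 20.4, 28.0 and 20.7 CPM at rest and at 7.01, 6.39 and 6.15 CPM with LPS, a fall to well under the resting range (log2 fold change -1.82 ± 0.18, edgeR adjusted p = 3.27e-07). Its partner Ly96 fell by 1.00 on the log2 scale, as did Sigirr (by 1.32) and Irak3 (by 0.78), which both restrain TLR signalling. Cd180 and Ly86 gave -0.18 and 0.01 and did not pass the test, although Cd180 did with a replicate block (-0.19, edgeR adjusted p = 0.00544). Per length, mean RPKM at rest was 56.3 for Cd180 and 116 for Ly86, against 5.98 for Tlr4 and 4.82 for Ly96. Ticam2, the adaptor that links TLR4 to TRIF, rose by 1.61 ± 0.24, from 10.8 to 14.2 CPM at rest to 31.3 to 45.1 CPM with LPS. It was the only one of the list to rise by over 2-fold, and Myd88 rose by 0.34.

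Of 23 NF-kB subunits and feedback inhibitors, 18 rose, 12 of them by over 2-fold, and 2 fell (median 1.08). Nfkbia, the inhibitor that holds NF-kB in the cytosol, was at 199, 205 and 219 CPM at rest and at 750, 743 and 757 CPM with LPS. The values within each group were close, and the log2 fold change was 1.85 ± 0.073 (edgeR adjusted p = 4.43e-11). Tnfaip3, or A20, which ends NF-kB signalling by editing ubiquitin, was at 78.1, 93.5 and 79.0 CPM at rest and at 587, 611 and 553 CPM with LPS (2.80 ± 0.096). Traf1 (2.32), Ikbke (2.01), Nfkb1 (1.53) and Rel (1.08) rose as well. Rela, the subunit that pairs with p50, rose by 0.39. The 2 that fell were Ikbkg, the NEMO subunit of the kinase complex (-0.38), and the deubiquitinase Cyld (-0.28). The NF-kB pattern was in 3 of the 19 genes of the list with a promoter (15.8%), and the ISRE core in 0 of 19.

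Of 10 chemokines, 6 rose and none of the 10 fell (median 1.42). Besides Cxcl10 and Ccl22 these were Ccl3 (2.70), Ccl5 (2.09), Ccl4 (2.01) and Cxcl16 (0.83). Of 21 cytokines, 10 rose (47.6%, against 30.6% of all genes), all by over 2-fold, and 4 fell (19.0%, against 30.2%). The median was 1.08, which became 0.526 without LPS replicate 3. When every library had to hold at least 10 counts, 6 rose and the median was 0.149. Tnf was at 4.45, 5.99 and 5.36 CPM at rest and at 50.3, 54.1 and 44.9 CPM with LPS (3.24 ± 0.15). Ebi3, the subunit shared by IL-27 and IL-35, was at 7.72, 7.16 and 7.30 CPM at rest and at 77.6, 72.7 and 48.4 CPM with LPS (3.16 ± 0.25). Il10, an inhibitory cytokine that B cells make after TLR signals, was at 2.27, 3.94 and 4.93 CPM at rest and at 17.8, 15.6 and 18.1 CPM with LPS (2.20 ± 0.24). In none of these 3 did the groups overlap. Il6 was at 0.0947, 0.179 and 0.142 CPM at rest, too few reads for a firm fold change, and at 3.03, 5.79 and 5.98 CPM with LPS. Lta (2.23), Il12b (2.60), Il1b (2.23), Lif (3.54) and Il15 (1.49) rose, and Tgfb3 (-2.66), Spp1 (-1.97), Csf1 (-1.11) and Il16 (-0.45) fell. Of 18 genes of JAK-STAT signalling and its feedback, 9 rose (50.0%) and 2 fell (11.1%), against 30.6% and 30.2% of all genes. With a replicate block 4 fell, and the median was 0.46. The rises were led by the kinases Pim1 (2.33 ± 0.13), Pim2 (1.70) and Pim3 (1.28). Pim1 was at 93.9, 116 and 110 CPM at rest and at 500, 572 and 544 CPM with LPS.

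More of the interferon-stimulated antiviral genes rose than fell. Of 44 tested, 20 rose (45.5%, against 30.6% of all genes) and 8 fell (18.2%, against 30.2%). By over 2-fold 12 rose, and 16 of the list did not pass the test (median 0.42). Those that rose included the RNA sensor Ifih1 (2.73), the inhibitors of viral replication Oasl1 (2.99), Mx1 (1.98), Mx2 (1.84) and Rsad2 (2.31), and the RNA-binding Ifit3 (1.45). Those that fell, by less than 2-fold, were Samd9l (-0.90), Trim25 (-0.79), Ddx60 (-0.76), Sp100 (-0.73), Uba7 (-0.68), Ddx58, which encodes the sensor RIG-I (-0.61), Herc6 (-0.45) and Slfn8 (-0.40). The number that fell was 4 without resting replicate 1, and 5 without LPS replicate 2 or without LPS replicate 3. The number that rose was 13 when every library had to hold at least 10 counts. Ifna4 was at 0 in all 3 resting libraries and at 0.535, 0.902 and 0.549 CPM with LPS, and it shares sequence with other interferon alpha genes. Ifng, which is made by T and NK cells above all, was at 2.75, 1.25 and 2.18 CPM at rest and at 0.119, 0.225 and 0.439 CPM with LPS. Of 18 interferon genes, receptors and regulators, 5 rose and 5 fell (27.8% each), near the 30.6% and 30.2% of all genes, with a median of -0.07. Among the regulators, Usp18 rose (1.73), Irf7 rose (0.63), Irf2 fell (-1.17) and Stat2 fell (-0.63). Of 13 GBP and IRG GTPases, which attack the vacuoles of intracellular pathogens, 6 rose and Gbp8 fell (median 0.39). These were 46.2% and 7.69% of the list, against 30.6% and 30.2% of all genes. Gbp2 rose by 1.19, and 3 rose in place of 6 without resting replicate 3. The call of Gbp8 was lost without resting replicate 2, and 2 genes of the list fell with a replicate block or a fit on the compared groups alone. Gbp, Slfn and Ifi200 genes have close paralogs between which reads can be split.

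The response to LPS of WT cells was measured in libraries that share none of these 6, so the genotypes were compared by the interaction of genotype with LPS. In WT cells 4417 genes rose (31.2%) and 4256 fell (30.1%) at an adjusted p under 0.05. No gene had an interaction with an edgeR adjusted p under 0.05 (0 of 14161, or 0.0%; smallest adjusted p = 1). At an unadjusted p under 0.05 there were 220 genes, 155 with a smaller value in Ubqln1-/- than in WT cells (1.09%) and 65 with a larger value (0.459%). DESeq2 and limma-voom also gave 0 genes at an adjusted p under 0.05, with 180 and 215 at an unadjusted p under 0.05. With the replicate number as a block, edgeR gave 0 and 430, and its smallest adjusted p was 0.0561. Without WT LPS replicate 2, however, 10 genes passed the adjusted test, all with a smaller value in Ubqln1-/- cells: Slfn8, Tor3a, Rsad2, Irf7, Dhx58, Hsh2d, Ifi213, Slfn5, Ifi214 and Entrez gene 100862514. These 10 were listed after their values were seen.

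The difference between genotypes in the interferon-stimulated list lay in 1 direction, although no single gene passed the adjusted test. In WT cells 37 of the 44 genes rose and 3 fell (median 1.24), beside 20 and 8 (median 0.42) in Ubqln1-/- cells. The response was smaller in Ubqln1-/- cells for 44 of 44, against 49.6% of all genes tested, with a median difference of -0.82. The unadjusted p was under 0.05 for 37 of the 44. These genes share their libraries and are not independent of each other. The mean log2 CPM over the 44 genes was 4.02, 4.01 and 3.93 in the resting Ubqln1-/- libraries and 3.65, 3.53 and 3.72 in the resting WT libraries. With LPS it was 4.98, 4.44 and 4.5 in Ubqln1-/- cells and 5.56, 4.73 and 5.25 in WT cells. The resting Ubqln1-/- libraries lay above all resting WT libraries, while with LPS replicate 1 of the Ubqln1-/- cells lay above replicate 2 of the WT cells. By replicate number, the median rise over the list was 0.64, 0.10 and 0.43 in Ubqln1-/- cells and 1.47, 0.78 and 1.23 in WT cells. Replicate 2 had the smallest rise in both genotypes.

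**Figure D3:**
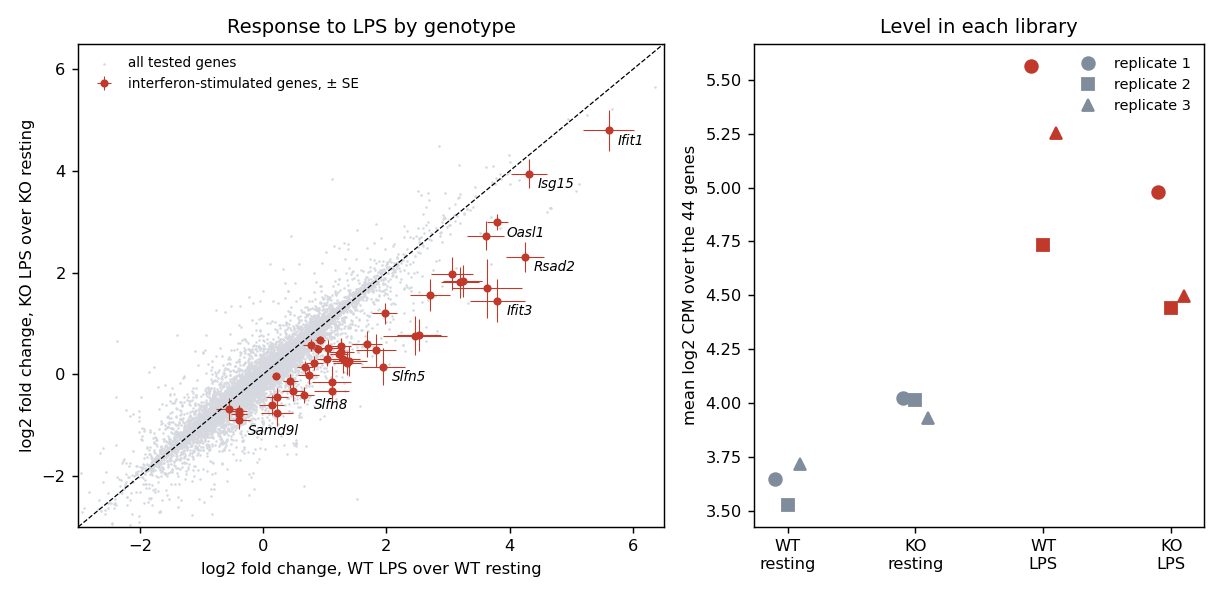
Left, log2 fold change with LPS in Ubqln1-/- (KO) cells (vertical) against WT cells (horizontal) for the 44 interferon-stimulated genes, in red with SE bars over all tested genes in grey, and a line of equality; right, mean log2 CPM over these genes in each library, by genotype, condition and replicate number. All 44 points lie below the line, and the Ubqln1-/- libraries run from 3.93 to 4.98 against 3.53 to 5.56 in WT.

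Ifit1 and Isg15, with the largest rises of the list in Ubqln1-/- cells, rose in WT cells too. Ifit1 gave 4.80 in Ubqln1-/- and 5.61 in WT cells (edgeR unadjusted p = 0.239), and Isg15 gave 3.95 and 4.31 (edgeR unadjusted p = 0.383). Rsad2, or viperin, was at 1.42, 1.21 and 1.47 CPM at rest and at 8.73, 5.79 and 5.93 CPM with LPS in Ubqln1-/- cells. In WT cells it was at 0.639, 0.779 and 0.896 CPM at rest and at 19.6, 8.59 and 16.8 CPM with LPS. At rest the Ubqln1-/- values were all above the WT values, and with LPS 1 Ubqln1-/- library lay above the lowest WT library. The difference of the responses was -1.94 ± 0.45 on the log2 scale (edgeR unadjusted p = 0.000461). Slfn8, a member of the Schlafen family, was at 65.6, 69.5 and 61.7 CPM at rest and at 56.9, 44.4 and 48.3 CPM with LPS in Ubqln1-/- cells. In WT cells it was at 53.7, 41.8 and 53.3 CPM at rest and at 94.6, 56.5 and 84.8 CPM with LPS. It fell by 0.40 in one genotype and rose by 0.67 in the other, a difference of -1.06 ± 0.22 (edgeR unadjusted p = 0.000182, adjusted p = 1; 0.0561 with a replicate block). The fall in Ubqln1-/- cells lost its call without LPS replicate 2 or 3 or without resting replicate 1 or 2. Ifit3 (1.45 and 3.80), Irf7 (0.63 and 2.00), the RNA editor Adar (0.41 and 0.72) and Ifi213 (-0.59 and 0.71) also had a smaller value in Ubqln1-/- cells. The WT libraries with LPS held 28590363 to 41072854 counts, all more than the Ubqln1-/- libraries with LPS, and the part of depth was not tested.

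The ISRE core was in 16 of the 34 genes of the interferon-stimulated list with a promoter (47.1%), against 3.85% of tested genes. It was in 8 of the 14 that rose in Ubqln1-/- cells (57.1%) and in 8 of the 20 that did not (40%). It was in 8 of the 9 GBP and IRG genes with a promoter (88.9%). The GAS element was in 17.6% of the genes of the interferon-stimulated list and in 55.6% of GBP and IRG genes, against 8.35% of tested genes. Upstream stretches are shown for Rsad2 and Ifit3, which rose in both genotypes with a smaller value in Ubqln1-/- cells, and for Slfn8, which had the smallest interaction p, with the core in capitals: chr12:26456543-26456592 (minus strand) for Rsad2, chr19:34583353-34583436 (plus) for Ifit3 and chr11:83020829-83020878 (minus) for Slfn8, from RefSeq on GRCm38.p6.
Rsad2: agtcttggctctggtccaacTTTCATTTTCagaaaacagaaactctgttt
Ifit3: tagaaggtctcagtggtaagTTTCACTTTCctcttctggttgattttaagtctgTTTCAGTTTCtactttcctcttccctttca
Slfn8: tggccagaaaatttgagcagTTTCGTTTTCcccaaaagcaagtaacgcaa
Ifit3, which rose, and Slfn8, which fell in Ubqln1-/- cells, both hold the same pattern.

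Surface genes of activation and costimulation mostly rose, and those of the antigen receptor mostly fell. Of 25 costimulation and activation genes, 18 rose, 12 of them by over 2-fold, and 2 fell (median 0.93). Cd83, which stabilises MHC class II at the surface, was at 194, 276 and 284 CPM at rest and at 1463, 1588 and 1691 CPM with LPS (2.65 ± 0.16). Icam1, the ligand of LFA-1, was at 76.8, 75.6 and 72.7 CPM at rest and at 452, 440 and 384 CPM with LPS (2.5 ± 0.10). Cd69, which retains cells in lymphoid tissue by binding the S1pr1 protein, was at 48.0, 59.9 and 70.3 CPM at rest and at 258, 255 and 283 CPM with LPS (2.16 ± 0.15). Each of these moved well beyond its resting range. Il2ra (3.02), Tnfrsf8 (3.01), Fas (2.24), Cd44 (2.14), Cd80 (1.87) and Cd40 (1.58) rose as well. Cd86 was at 56.3, 106 and 119 CPM at rest and at 88.1, 143 and 169 CPM with LPS. These groups overlapped, and Cd86 did not pass the test without a block (0.51 ± 0.40, edgeR adjusted p = 0.279). Each LPS library was above the resting library of the same number, and with a replicate block Cd86 passed (0.53 ± 0.09, edgeR adjusted p = 8.14e-05). Cd38 fell by 1.72 and Cd24a by 0.45.

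Of 27 genes of the B cell receptor and its coreceptors, 5 rose and 15 fell (median -0.36). These were 18.5% and 55.6% of the list, against 30.6% and 30.2% of all genes. The falls included the signalling chains Cd79a (-0.55) and Cd79b (-0.60), the kinases Btk (-1.11) and Lyn (-0.80), and the inhibitory receptors Pirb (-1.75), Siglecg (-1.31), Cd22 (-1.10) and Fcgr2b (-0.93). Cd22 was at 1173, 923 and 909 CPM at rest and at 578, 393 and 427 CPM with LPS. The inhibitory receptor Lilrb4a went the other way (2.05 ± 0.51). Without resting replicate 3, 3 genes of the list rose in place of 5. Of 15 genes of MHC class II presentation, 7 fell (46.7%, against 30.2% of all genes) and none of the 15 rose (median -0.53). Without LPS replicate 2 or without resting replicate 3, 1 gene of this list rose. Marchf1, the ligase that removes MHC class II from the surface, was at 241, 238 and 231 CPM at rest and at 70.3, 60.6 and 76.8 CPM with LPS (-1.78 ± 0.11). Ciita, the master regulator of the class II genes, fell by 0.89, and H2-DMa, H2-DMb1, H2-DMb2, H2-Oa and H2-Ob of the peptide exchange machinery fell by 0.58 to 1.00. The class II chains did not pass the test: H2-Aa gave -0.11, H2-Ab1 -0.02 and Cd74 -0.15, of which Cd74 passed with a replicate block (edgeR adjusted p = 0.0455). The median of the class II list was -0.165 without LPS replicate 2 and -0.088 without resting replicate 3. Of 19 genes of MHC class I and peptide loading, 6 rose (31.6%, against 30.6% of all genes) and 8 fell (42.1%, against 30.2%). The rises were led by the proteasome activator subunit Psme2 (1.28) and the falls by H2-T24 (-1.02) and H2-T23 (-0.81). H2 paralogs can share reads. The fall of H2-T24 lost its call without LPS replicate 2 or resting replicate 1.

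Among transcription factors of B cell fate, Irf4 and Batf rose while Bach2, Id3 and Hhex fell. Of the 27 tested, 9 rose (33.3%) and 8 fell (29.6%), which is near the 30.6% and 30.2% of all genes. The median of -0.06 became -0.152 without LPS replicate 2, -0.132 without resting replicate 3 and -0.017 without resting replicate 2. Irf4, which drives activated B cells toward the plasma cell fate at high levels, was at 364, 420 and 366 CPM at rest and at 1359, 1455 and 1395 CPM with LPS (1.87 ± 0.075). Batf, needed for class switching, was at 12, 11.8 and 8.49 CPM at rest and at 83.8, 97.3 and 65.0 CPM with LPS (2.93 ± 0.27). Irf8 rose by 0.96, while Bach2, which holds back plasma cell differentiation, fell by 0.91, Id3 by 1.43 and Hhex by 1.76. Prdm1, which encodes the plasma cell regulator Blimp-1, was at 17.5, 22.9 and 21.8 CPM at rest and at 14.1, 14.7 and 19.5 CPM with LPS. These overlapped and did not pass the test (-0.37 ± 0.16, edgeR adjusted p = 0.0522), but passed it with a replicate block (-0.38 ± 0.13, edgeR adjusted p = 0.0197). Pax5 (0.11) did not pass it either. Of 11 plasma cell secretory genes, 3 rose (27.3%) and 4 fell (36.4%), near the shares of all genes, with a median of -0.31. Irf4, Slamf7 (1.03) and Sec61a1 (0.50) rose, and Sdc1, Fkbp11 (-1.10), Mzb1 (-0.86) and Xbp1 (-0.31) fell.

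Of 23 quiescence factors, 18 fell, 8 of them by over 2-fold, and none of the 23 rose (median -0.86), though 1 rose in a fit on the compared groups alone. Klf2, which keeps lymphocytes quiescent, was at 410, 341 and 428 CPM at rest and at 97.1, 85.6 and 141 CPM with LPS (-1.87 ± 0.17). Cdkn1b, the CDK inhibitor p27, was at 188, 192 and 183 CPM at rest and at 81.9, 76.6 and 85.8 CPM with LPS (-1.20 ± 0.073). Mxd4, a Max partner that opposes Myc, was at 70.7, 64.0 and 57.7 CPM at rest and at 19.4, 13.3 and 18.3 CPM with LPS (-1.93 ± 0.17). Foxo1 (-0.82), Foxo3 (-0.86), Btg2 (-0.88) and Pik3ip1, an inhibitor of PI3 kinase (-1.87), fell too. Klf4 (-0.53), Klf7 (-0.41), Tob2 (0.05), Btg1 (0.07) and Bcl6b (0.61) did not pass the test, of which Klf4 (edgeR adjusted p = 0.0163) and Klf7 (edgeR adjusted p = 0.0458) did with a replicate block.

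Of 22 homing and trafficking receptors, 11 fell (50.0%, against 30.2% of all genes) and 5 rose (22.7%, against 30.6%). The median was -0.61. Beside S1pr1, S1pr4 (-2.02), the integrin chain Itgb7 (-1.79), and the bone marrow homing receptor Cxcr4 (-1.39) fell. The receptors for follicles and T cell zones moved up: Cxcr5 was at 415, 470 and 459 CPM at rest and at 921, 986 and 1101 CPM with LPS (1.16 ± 0.13), Ccr7 rose by 1.01 and Gpr183 by 0.70. Itgal, the LFA-1 chain whose ligand is Icam1, rose by 1.43 ± 0.075. Of 16 marginal zone and follicular markers, 6 rose and 6 fell (37.5% each, against 30.6% and 30.2% of all genes), with a median of -0.10. Among them were Fcer2a (CD23, 1.70), Plxnd1 (3.11), Cr2 (CD21, 0.64), Cd1d1 (-1.26) and Tm6sf1 (-2.03).

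The Myc network and G1 regulators held 2 of the 15 largest rises, those of Myc and Ccnd2. Of 23 genes, 9 rose (39.1%) and 6 fell (26.1%), against 30.6% and 30.2% of all genes tested. The median of 0.12 became 0.034 without LPS replicate 2 and 0.191 without LPS replicate 3. Myc was at 70.8, 106 and 70.5 CPM at rest and at 851, 962 and 718 CPM with LPS, which is 10.2-fold (log2 fold change 3.36 ± 0.20, edgeR adjusted p = 2.36e-09). The groups were far apart. Per length, mean RPKM went from 13.2 to 203 for Ccnd2 and from 27.3 to 19.3 for Ccnd3, so that Ccnd3 had the higher level at rest and Ccnd2 with LPS. Ccnd3 was at 65.0, 58.2 and 61.6 CPM at rest and at 44, 43.4 and 43.8 CPM with LPS (-0.49 ± 0.059). Ccnd1 stayed under 1 RPKM in both conditions. Cdk6 (1.49), Cdk4 (0.95) and the phosphatase Cdc25a (0.85) rose, while Ccne1 (-1.47), Mxd3 (-1.74) and Rb1 (-0.78) fell. Of 34 replication genes, 12 rose, none of the 34 by over 2-fold, and 4 fell. The share that rose was 35.3%, near the 30.6% of all genes, and the median of 0.19 became 0.122 without LPS replicate 2 and 0.117 without resting replicate 3. Orc1 (0.94), Mcm3 (0.63), Mcm5 (0.53) and Pcna (0.53) rose, and Mki67 (-0.32) and Top2a (0.26) did not pass the test.

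Of 15 genes of the BCL2 family, 8 rose (53.3%, against 30.6% of all genes) and 3 fell (20.0%, against 30.2%). The median was 0.50. Anti-apoptotic Bcl2a1b (3.04) and Bcl2a1d (3.93), near-identical copies between which reads can be split, rose with Bcl2l1. Bcl2 (-0.19) and Mcl1 (0.07) did not pass the test, although Bcl2 did with a replicate block (edgeR adjusted p = 0.0284). Mcl1 was at a mean RPKM of 288 at rest and 301 with LPS, against 5.93 and 85.8 for Bcl2l1. The pro-apoptotic genes Bbc3 (1.38), Bid (1.3), Pmaip1 (0.72) and Bcl2l11 (0.54) rose and Bad fell (-0.90). Of 26 immediate early and AP-1 genes, 14 rose (53.8%) and 3 fell (11.5%), against 30.6% and 30.2% of all genes. Their median was 0.77. Jun was at 27.8, 24.2 and 25.6 CPM at rest and at 84.8, 98.5 and 96.8 CPM with LPS (1.85 ± 0.16). Junb (1.23), Atf3 (1.53), Nr4a1 (1.59) and Ier3 (1.66) rose, Egr2 fell (-0.82), and Fos (-0.16) and Egr1 (0.70) did not pass the test. With a replicate block Egr1 did (0.67 ± 0.17, edgeR adjusted p = 0.00202). Of 17 MAPK feedback genes, 8 rose, led by Gadd45b (2.08), and 2 fell, Gadd45a (-1.43) and Dusp6 (-1.17), with a median of 0.59. These were 47.1% and 11.8% of the list, against 30.6% and 30.2% of all genes. When fitted on the compared groups alone, 4 of the 17 fell.

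Genes for building ribosomes rose throughout. All 39 tested genes of ribosome biogenesis rose, 33 of them by over 2-fold, with log2 fold changes from 0.43 to 2.67 and a median of 1.47. Rrp1b, a nucleolar protein of pre-rRNA processing, was at 29.8, 38 and 31.1 CPM at rest and at 207, 239 and 182 CPM with LPS (2.67 ± 0.16). Nop58, of the box C/D snoRNP, was at 95.2, 114 and 99.8 CPM at rest and at 408, 454 and 384 CPM with LPS (2.01 ± 0.12). Ncl, or nucleolin, was at 1039, 1241 and 1100 CPM at rest and at 3032, 3502 and 3058 CPM with LPS (1.5 ± 0.12). In each of these replicate 2 was the highest of both conditions. Polr1b, the second largest subunit of RNA polymerase I, rose by 1.95. The E-box CACGTG was in 21.2% of the 33 genes of the list with a promoter, against 11.8% of tested genes. When only the bases upstream of the start were read, it was in 6.06% of the list and in 9.94% of tested genes. Of 61 genes for proteins of the cytosolic ribosome 32 rose (52.5%, against 30.6% of all genes), 3 of them by over 2-fold. The median was 0.28. The list held 2 that fell, among them Rpl13a (-0.15), whose call was lost when any 1 of the 6 libraries was left out.

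Other parts of protein synthesis rose with them. Of 38 translation initiation factors 33 rose and 2 fell (median 0.73), led in size by Eif2b3 (1.79), Eif4ebp1 (1.47) and Eif1a (1.43), with the cap-binding Eif4e at 1.35. Of 20 cytosolic aminoacyl-tRNA synthetases 19 rose, 11 by over 2-fold, and Qars fell (-0.13, a call lost without LPS replicate 1), with a median of 1.08. Of 25 amino acid transporters and enzymes of polyamine and one-carbon metabolism 22 rose and none of the 25 fell (median 1.08), though 1 fell with a replicate block. Srm, which makes spermidine, was at 39.9, 52.3 and 39.6 CPM at rest and at 242, 263 and 227 CPM with LPS (2.47 ± 0.16). Slc7a5, the transporter of large neutral amino acids, was at 90.1, 137 and 123 CPM at rest and at 517, 704 and 577 CPM with LPS (2.36 ± 0.24). Neither pair of groups overlapped. Of 20 enzymes of purine and pyrimidine synthesis 18 rose, with Ctps at 2.11 and Ppat at 1.68, and Ctps2 fell (-0.73, with 2 falls under a replicate block), with a median of 0.94.

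Most genes for protein folding and degradation, the processes in which Ubiquilin-1 acts, rose as well. Of 29 cytosolic and mitochondrial chaperones 24 rose and Hspa4l fell (-1.20), with a median of 0.81. Hspd1, the mitochondrial chaperonin, was at 24.8, 29.4 and 24.8 CPM at rest and at 79.1, 90.6 and 71.0 CPM with LPS (1.61 ± 0.14). The heat-inducible Hspa1a (0.14) and Hspa1b (-0.06) did not pass the test. Of 38 proteasome genes 35 rose and none of the 38 fell (median 0.59), with the activator subunit Psme3 (1.17) and the assembly chaperone Psmg2 (1.13) highest. Of 15 ubiquilins and factors that triage membrane proteins 10 rose, none of the 15 by over 2-fold, and none fell (median 0.34), though 2 fell with unscaled library sizes. The rises included Ubqln4, Rnf126 (0.82), Rad23b (0.72), Get1 (0.48), Get3 (0.41), Ubl4a (0.38), Sgta (0.34), Ddi2 (0.34) and Get4 (0.19), while Bag6 gave 0.11 and passed the test only with a replicate block (edgeR adjusted p = 0.037). Of 33 genes of ER folding and the unfolded protein response 22 rose and 3 fell (median 0.30). Chac1 (2.88), Trib3 (2.29), Ppp1r15a (1.59), Atf5 (1.28) and Atf4 (1.07), which belong to the ATF4 branch, were among the largest, Hspa5 (BiP) rose by 1.09, and Eif2ak3, the kinase PERK, fell by 1.32.

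Among mitochondrial genes, the lists for import and quality control had higher medians than that for the respiratory chain. Of 29 import genes 22 rose, 10 by over 2-fold, and none of the 29 fell (median 0.58), though 1 fell with DESeq2 or a replicate block. The rises included the small Tim chaperones Timm8a1 (1.92), Timm10 (1.79) and Timm9 (1.46) and the channel Tomm40 (1.17). Of 16 proteases and quality control factors 12 rose and Spg7 fell (-0.23), with a median of 0.45. Phb, or prohibitin, rose by 1.16, and Atad1, which extracts mislocalised proteins from the outer membrane, by 0.55. Of 64 subunits of the respiratory chain and ATP synthase 38 rose, none of the 64 by over 2-fold, and Ndufa6 fell (-0.32, with 3 falls under a replicate block and 2 without LPS replicate 3 or resting replicate 2), with a median of 0.23. The largest of these rises were in Atp5g2 (0.96) and Uqcrq (0.87). The difference between these lists was not tested.

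In glucose metabolism 11 of 24 genes rose and 6 fell (median 0.29). Hk2, the inducible hexokinase, was at 16.3, 24.4 and 18.5 CPM at rest and at 131, 160 and 117 CPM with LPS (2.78 ± 0.19), and the lactate carrier Slc16a1 (2.19) and Ldha (1.11) rose. Hk1 (-0.51) and Aldoc (-1.19) fell, and the main glucose transporter Slc2a1 gave 0.10 and did not pass the test. Without resting replicate 1, 3 genes fell in place of 6, and Aldoc was not among them. Of 25 cholesterol genes 17 rose, 10 by over 2-fold, and 3 fell (median 0.90). Sqle (1.42), Lss (1.39) and Cyp51 (1.26) rose, and the exporter Abca1 fell (-1.07).

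**Figure D4:**
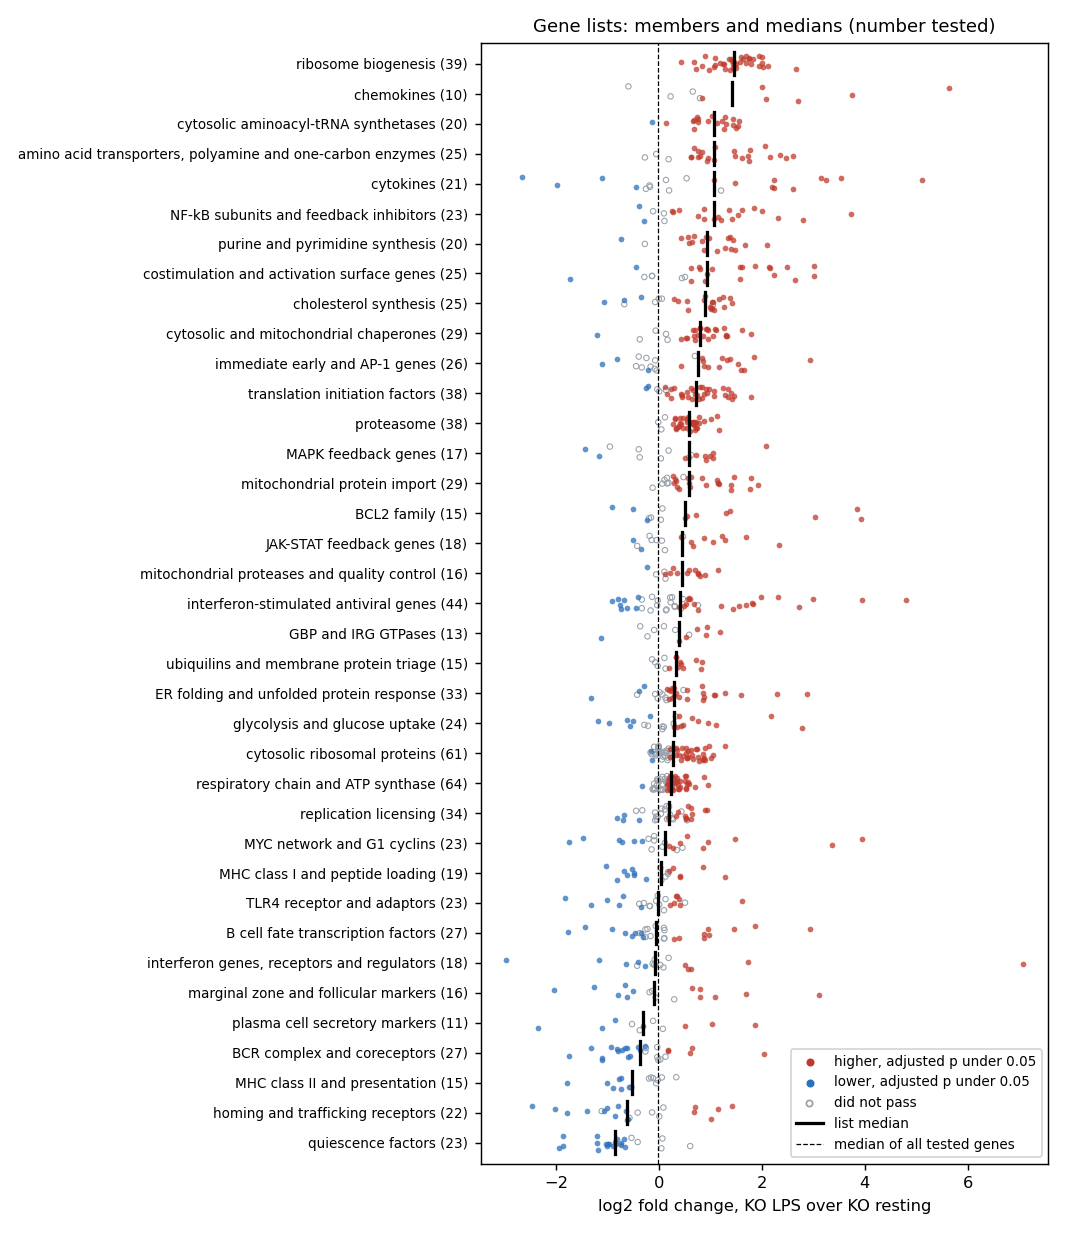
Log2 fold change with LPS over resting in Ubqln1-/- cells (horizontal axis) for the tested members of 37 gene lists, with 1 point per gene and a mark at each median. The medians run from -0.86 for quiescence factors to 1.47 for ribosome biogenesis, and the point furthest to the right is Ifna4, which was at 0 in all resting libraries.

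Anti-IgM engages the antigen receptor rather than TLR4, and Ubqln1-/- cells with LPS were compared with Ubqln1-/- cells with anti-IgM directly, since both would otherwise share the resting libraries. Interferon-induced genes such as Cxcl10 and Ifit1 and the NF-kB genes Nfkbiz and Bcl3 were higher with LPS, and Egr2 and Spp1 were higher with anti-IgM. Myc, Rrp1b and Srm did not pass the test of a difference. Past the thresholds of the study 172 genes were higher with LPS (1.21%) and 145 were higher with anti-IgM (1.02%). Of the 91 genes that rose with LPS by the rule for the largest changes, 27 were also past these thresholds over anti-IgM and 0 under it. These genes were chosen for high values in the same LPS libraries, so the direction of this split was largely set by the choice. Of the 20 that fell, 0 passed them in either direction. The test was edgeR, and its total of 317 became 170 when every library had to hold at least 10 counts.

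The 8 largest of the 27 included Cxcl10, Ifit1, Ccl22, Ebi3, Isg15, Tnfrsf19 and Nid1. Cxcl10 was at 0.300, 0.125 and 0.456 CPM with anti-IgM, which gave a log2 fold change of LPS over anti-IgM of 6.39 ± 0.37. The size of this change is not firm at so few reads. Nid1, a basement membrane protein, was at 4.36, 4.51 and 4.93 CPM with anti-IgM against 56.3, 73.5 and 63.2 CPM (3.81 ± 0.19). For both the anti-IgM libraries lay within or below the resting range. Ifit1 (5.55), Ccl22 (4.08), Ebi3 (4.08), Isg15 (4.02) and Tnfrsf19 (3.86) differed in the same direction. Fcer2a was at 409, 328 and 344 CPM with anti-IgM, below its resting 630, 697 and 634 CPM, and at 2213, 2192 and 1965 CPM with LPS (LPS over anti-IgM 2.56 ± 0.17).

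Ccnd2 and Nfkbiz rose with both stimuli but further with LPS. Ccnd2 was at 177, 199 and 193 CPM with anti-IgM, a difference of 2.63, and Nfkbiz at 118, 96.2 and 104 CPM, a difference of 2.70 on the log2 scale. Bcl2l1 (2.00), Jun (2.17), Pim1 (2.02), Tlr1 (2.55) and Bcl3 (2.47) were also higher with LPS. Myc was at 750, 789 and 738 CPM with anti-IgM, a log2 difference of 0.15 ± 0.18 that did not pass the test (edgeR adjusted p = 0.575). The ribosome biogenesis genes Rrp1b (0.14 ± 0.14) and Nop58 (0.23 ± 0.11), with Srm (0.05 ± 0.15), did not pass it either, which does not show that they were equal. With a replicate block Nop58 passed (0.23 ± 0.08, edgeR adjusted p = 0.0254). The medians of the ribosome biogenesis list over resting were 1.47 with LPS and 1.51 with anti-IgM, and those of the NF-kB list 1.08 and -0.02. For the interferon-stimulated list they were 0.42 and -1.15, and for the GBP and IRG list 0.39 and -1.79. In the other direction, Egr2, an early target of antigen receptor signals, was at 523, 343 and 397 CPM with anti-IgM against 10.8, 12.6 and 13.9 CPM with LPS (-5.08 ± 0.20). Spp1, or osteopontin, was at 126, 125 and 156 CPM with anti-IgM against 1.19, 0.939 and 1.76 CPM with LPS (-6.74 ± 0.22).

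**Figure D5:**
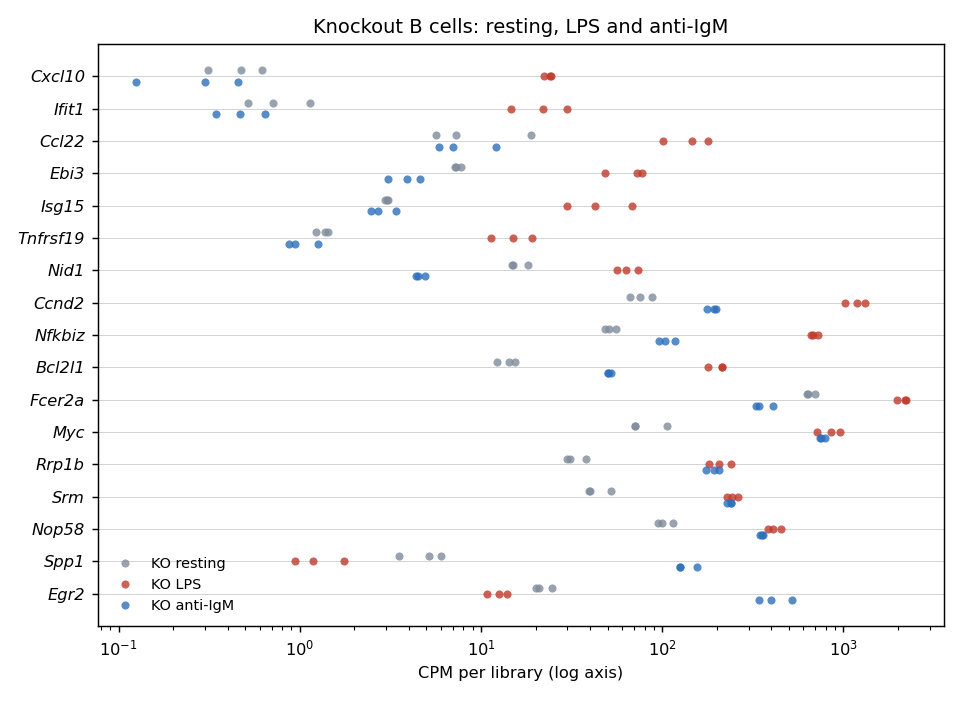
CPM on a log axis in each Ubqln1-/- (KO) library, resting, with LPS and with anti-IgM, for 7 of the 8 genes furthest above anti-IgM among the largest rises and for 10 others. Cxcl10 stays under 1 CPM with anti-IgM while it reaches 24.3 CPM with LPS, Myc and Srm lie together under both stimuli, and Egr2 and Spp1 are high with anti-IgM.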

How the data were processed

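RNA was sequenced from poly(A)-selected, unstranded libraries (Illumina TruSeq v2, single-end), so overlapping and antisense genes cannot be told apart. Per the labels, GSNAP was the aligner and GRCm38 the genome build. The authors deposited, for each Entrez gene, the read count without normalization, and RPKM values beside it that were not used. The counting program is not given in the sources used here. Symbols came from RefSeq and matched 25035 of 28096 genes (89.11%), with 95.76% to 96.17% of the counts. The unnumbered replicate of each group was taken as replicate 1.

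From the counts, edgeR 4.0.16 in R 4.3.3 fitted quasi-likelihood models over all 18 libraries with 1 term per group and TMM scaling, after its expression filter (14161 genes). The SE was obtained from each log2 fold change and its F statistic, and p-values were adjusted by Benjamini-Hochberg over all genes tested. CPM and RPKM were computed here with TMM-scaled library sizes. The biological coefficient of variation was 10.14%. DESeq2 1.42.0, limma 3.58.1 with voom, other scalings and filters, and leaving out each replicate were alternatives. The functions were tested on simulated counts.

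Named genes were the ubiquilins, Myc, Ccnd2 and Ccnd3, the 15 largest rises and falls (at least 10 CPM, groups apart), in each list up to 4 members with the smallest p, up to 2 with the largest fall and members that define the pathway, the 5 genes with the smallest interaction p, and the 8 furthest from anti-IgM. The comparison, the rules and the 37 lists were chosen with earlier results of these data known.

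Deviations from group means correlated between the resting and LPS Ubqln1-/- libraries of the same number (0.316, 0.290 and 0.306). The numbers were therefore taken to pair them, from the data and not from the labels. Between genotypes, libraries of the same number correlated at 0.319, 0.315 and 0.253 with LPS and at 0.298, 0.083 and 0.197 at rest. The main tests held no term for this pairing, and only the fits with a replicate block did. Ighm and Trac were not analysed here, and some genes that the rules name are not reported here.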

Additional observations from a re-analysis of the deposited data

Results flagged for a closer look

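For 3 genes, LPS moved every Ubqln1-/- pair of libraries with the same number down and every WT pair up. The difference between the responses, Ubqln1-/- minus WT, was -1.06 on the log2 scale for Slfn8, -1.19 for Entrez gene 100862514 and -1.3 for Ifi213. The interaction was tested for each, and the edgeR adjusted p was 1 in all 3. The fitted changes in Ubqln1-/- and WT cells were -0.40 and 0.67 for Slfn8, -0.51 and 0.68 for Entrez gene 100862514, and -0.59 and 0.71 for Ifi213. The falls of these genes in Ubqln1-/- cells lost their call when single libraries were left out. All 3 were among the 10 genes that passed the interaction test without WT LPS replicate 2. Slfn8 and Ifi213 belong to families with close paralogs. Groups of 3 libraries were too small to examine for single outlying samples.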

How the results depend on the processing

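The number of genes past the thresholds of the study in Ubqln1-/- cells with LPS was 247 and stayed between 230 and 267 under limma-voom (231), DESeq2 (254), another scaling, no expression filter, a fit on the compared groups alone (230) and a replicate block (267). It was 124 when every library had to hold at least 10 counts, with 12230 genes tested in place of 14161. That filter leaves out genes with few reads in any library, and how many of the 247 it left out was not examined. The number was 1718 with a log2 fold change over 1 at an adjusted p under 0.001. Leaving out 1 library gave 183 to 260. For LPS against anti-IgM, 317 genes became 170 with at least 10 counts in every library, 362 with the block and 269 to 292 with 1 library left out. For an adjusted p under 0.05, 8599 genes became 7583 to 8112 with 1 library left out, 8637 with unscaled library sizes, 8523 with DESeq2 and 9480 with the block. With over 2-fold, 2257 became 1952 to 2368, 2285, 2239 and 2306, and 2394 without an expression filter. The interaction gave 0 genes in every alternative (edgeR 220 at an unadjusted p under 0.05, 430 with the block), except for 10 without WT LPS replicate 2 (0 to 10 over all libraries left out). The cause was not tested. With the block, 67 list members and named genes gained a call against resting and 112 against anti-IgM, and 0 lost one. It moved none of these totals at an adjusted p by over 1.5 times. Among the single genes picked by the fixed rules, 38 calls were lost and 6 gained over all alternatives, and none of the directions turned. Members named only because they define a pathway, such as Cd86, Prdm1 and Egr1, which gained a call with the block, are outside that count. With 3 libraries a group, genes at under 1 CPM at rest, such as Cxcl10, Il6 and Ifna4, have no firm fold change.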
